A study of Drosophila melanogaster with 6 samples.

Results

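Bristle shaft cells are the cells that build the visible hair of a fly's mechanosensory bristle, and they were picked out here in single-cell RNA libraries from the first tarsal segment of the Drosophila melanogaster pupal foreleg. Members were selected on measured values. A barcode counted as a member when it held at least 2 unique molecular identifiers (UMIs, each standing for 1 captured transcript) of sv, the fly Pax2 transcription factor, and 0 UMIs of Su(H), pros, nompA and elav, after barcodes with fewer than 500 detected genes or more than 10% mitochondrial UMIs had been left out. The rule was met by 86 of 10610 barcodes in the 20 h male library, by 132 of 13928 in the 24 h female library and by 48 of 11463 in the 36 h male library. That gave 266 members of 36001 barcodes in these 3 libraries, in a series of 6 libraries with 71346 barcodes past the same filter. The shares were 0.811% (exact 95% interval 0.649 to 1.00%), 0.948% (0.794 to 1.12%) and 0.419% (0.309 to 0.555%). All intervals given here cover counting error only.

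Ages are hours after puparium formation. The 20 h and 36 h libraries came from males with the genotype dsx-GAL4 > UAS-mCherry, in which the doublesex driver expresses a red fluorescent protein, and the 24 h library came from females of the wild-derived inbred strain RAL-517, which carry no such reporter. Each library came from 1 pool of 65 to 70 segments, and the tissue was dissociated for 35 min, or for 45 min at 36 h. Each group is therefore 1 library with no replicate, no label separates the animals of a pool, and age, library and, at 24 h, sex and strain cannot be told apart. No p-value is given for that reason. Values are sums of UMIs over a set of cells, scaled to 1000000 UMIs of that set (CPM), so levels are those of 3' tags and not of whole transcripts.

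An external sensory bristle comes from a sensory organ precursor whose divisions yield a shaft, a socket, a sheath and a neuron, with Notch signalling setting sisters apart. The shaft and socket cells stop dividing but go on copying their DNA, and the shaft then extrudes a long process held straight by cross-linked actin bundles, over which zona pellucida (ZP) domain proteins and cuticle are laid. The genes of the rule follow that lineage: sv is used by shaft and sheath cells, Su(H) is strongly expressed in the socket, nompA encodes an extracellular protein of the sheath, pros is a transcription factor of the sheath, and elav encodes a neuronal RNA-binding protein. In the BDGP6.54 annotation sv lies on chromosome 4 at 1088798 to 1113317 on the plus strand.

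Members were deeper than their surroundings. Their median UMI counts were 16374 at 20 h, 19300 at 24 h and 21629 at 36 h, against 10460, 12406 and 8400 in the other barcodes of the same libraries. The ranges were wide, from 981 to 58660, from 3207 to 69762 and from 962 to 54547 UMIs. The sums over members held 1426808, 2715287 and 1002109 UMIs, so that a floor of 3 counts stood at 2.10, 1.10 and 2.99 CPM. The requirement of a minimum count favours deep barcodes and the requirement of 0 UMIs favours shallow ones. Depth's part in the results was not tested beyond the alternatives given in the closing section. Of the barcodes with at least 2 sv UMIs, 441 of 527, 781 of 913 and 428 of 476 were left out because they held a UMI of an excluded gene. At 36 h, 354 of the 476 held nompA. The same 4 genes were widespread elsewhere, with elav in 22.8%, 34.6% and 25.2% of the other barcodes, and nompA in 2.61%, 2.09% and 14.8%. Pairs of libraries shared 32 to 40 barcode sequences, and no member's barcode recurred as a member. In the 24 h female library 5 of 132 members (3.79%) and 2.44% of the other barcodes held at least 3 UMIs of each of the male-specific roX RNAs.

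Barcodes just inside and just outside the threshold of 2 sv UMIs were compared. At 20 h, sha stood at 14.7 CPM in 243 barcodes with exactly 1 sv UMI and no excluded gene, at 48.4 CPM in the 35 members with exactly 2, and at 67.1 CPM in the 51 members with 3 or more. At 24 h the same 3 steps gave 9.15, 61.2 and 65.9 CPM over 130, 40 and 92 barcodes, a step between 1 and 2 UMIs. At 36 h, f stood at 362, 495 and 1319 CPM over 133, 14 and 34 barcodes. Barcodes with at least 2 sv UMIs that the excluded genes removed were near members in these markers at 36 h, with 1285 CPM of f and 1044 CPM of jv, but carried 660 CPM of nompA.

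The label was checked against 4 markers that the rule did not use, and the outcome depended on age. These were sha (shavenoid, needed for actin hairs), f (forked, an actin-bundle protein), jv (javelin, needed for bristle shape) and dyl (dusky-like, a ZP domain protein of the bristle surface). They lie at X:17232942-17280964 on the plus strand (f), 3L:6563197-6589479 on the minus strand (jv) and 3L:4294004-4307718 on the minus strand (dyl) in the same annotation. At 36 h, 22 of 48 members held UMIs of all 4 markers and 1 held none. At 20 h 0 of 86 members held all 4, 36 held none and 30 held 1, and at 24 h 0 of 132 held all 4, 44 held none and 45 held 1. At 20 h and 24 h the members are therefore best described by the rule, as sv-positive barcodes without Su(H), pros, nompA and elav UMIs: sha was higher in members at both ages and f at 24 h, while jv and dyl were not. The socket gene Sox15, which the rule did not use, had UMIs in 12 of 86 members at 20 h, 28 of 132 at 24 h and 7 of 48 at 36 h. Its level was 9.81, 12.9 and 12.0 CPM in members and 3.20, 3.47 and 18.3 CPM in other barcodes.

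The level of sha in members was nearly the same in the 20 h, 24 h and 36 h libraries, with 63.1, 64.8 and 64.9 CPM. In the other barcodes it was 8.42, 7.39 and 98.9 CPM. The pooled level in members was thus alike in these 3 unreplicated libraries, while other barcodes lay far below it at 20 h and 24 h and above it at 36 h. Within the 36 h members sha was at 0 CPM in a cluster of 5 and 38.5 CPM in one of 18. It was at 112 CPM in one of 11 and, on 2 UMIs, at 187 CPM in a shallow one of 7. The log2 ratio of members to the other barcodes was 2.91 (95% interval 2.58 to 3.22) at 20 h, 3.14 (2.90 to 3.36) at 24 h and -0.60 (-0.98 to -0.26) at 36 h. With every cell thinned to 8000 UMIs and shallower cells left out, sha was detected in 40.3% of 62 members at 20 h, in 3.69% of the other barcodes and in 2.80% of an elav-positive neuron set, which should lack it. Unthinned, 45.3% of members, 5.17% of other barcodes and 4.09% of the neuron set held it, in cells with a median of 16374, 10460 and 10675 UMIs. At 36 h the thinned shares were 30.0% of 40 members and 29.9% of other barcodes, so at that age sha did not separate them.

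The cross-linker gene f was low early and abundant late. It stood at 14.0 CPM in members and 10.7 CPM in other barcodes at 20 h (log2 ratio 0.43, -0.32 to 1.03), at 31.7 and 8.05 CPM at 24 h (1.98, 1.64 to 2.29) and at 1217 and 251 CPM at 36 h (2.28, 2.20 to 2.36). Thinned detection at 20 h was 4.84% in members and 6.38% in other barcodes, which is background. The thinned share was 18.3% against 4.68% at 24 h and 85.0% against 50.9% at 36 h. The neuron set was at 28.3% at 36 h.

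For jv the members held 7.71, 2.58 and 1130 CPM at the 3 ages in order, against 7.45, 4.55 and 138 CPM in other barcodes. The intervals of the first 2 log2 ratios, 0.11 (-0.96 to 0.90) and -0.72 (-2.14 to 0.23), cover 0, and the last was 3.03 (2.94 to 3.12). The pattern of dyl was alike, with 8.41, 5.52 and 654 CPM in members and 9.09, 7.02 and 109 CPM in other barcodes, and a log2 ratio of 2.59 (2.47 to 2.70) at 36 h. Both genes thus set members apart at 36 h and, within counting error, at neither earlier age. After thinning, jv was found in 75.0% of members and 16.6% of other barcodes at 36 h, and dyl in 80.0% and 29.0%.

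Comparison sets of sister-type cells were drawn in the same libraries. They were barcodes with at least 2 UMIs of Sox15, a transcription factor of the socket, and none of sv, pros, nompA or elav (21, 25 and 177 cells), barcodes with at least 2 UMIs of nompA and none of Su(H) or elav (the sheath set; 54, 56 and 413), and barcodes with at least 2 UMIs of elav and none of Su(H) or nompA (the neuron set; 563, 1124 and 573). At 20 h and 24 h the sheath set, not the members, held most jv and f. The sheath set was at 155 and 256 CPM for jv and at 54.6 and 118 CPM for f. The 36 h sheath set was not of 1 kind: 65 of its 413 barcodes (15.7%) lay in the cluster that held most members, and these carried 1723 CPM of f, 46400 CPM of Osi21 and 184 CPM of nompA. At 36 h members were above the whole sheath set for f (1217 against 773 CPM), jv (1130 against 513 CPM) and dyl (654 against 304 CPM), while sha was higher in the sheath set (253 CPM). In the other 348 barcodes of the set, an alternative chosen after seeing the data, f was at 305 CPM, jv at 226 CPM, dyl at 93.6 CPM and sha at 367 CPM. Of the 36 h neuron set 17 of 573 barcodes lay in that cluster, and without them its f was at 62.3 CPM in place of 164 CPM. At 20 h and 24 h 1 of 54 and 0 of 56 sheath set barcodes lay in the cluster with most members. Against the whole sheath set, with 6.99% of genes called higher and 11.8% lower at 36 h, 2 of the 4 markers were at least 2-fold higher in members and 1 lower, and against the neuron set (14.2% and 32.0%) 3 were higher and 0 lower. The socket set was near members for sha at 20 h (59.1 CPM) and held 46.7 CPM of f and 18.2 CPM of jv at 36 h.

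**Figure D1:**
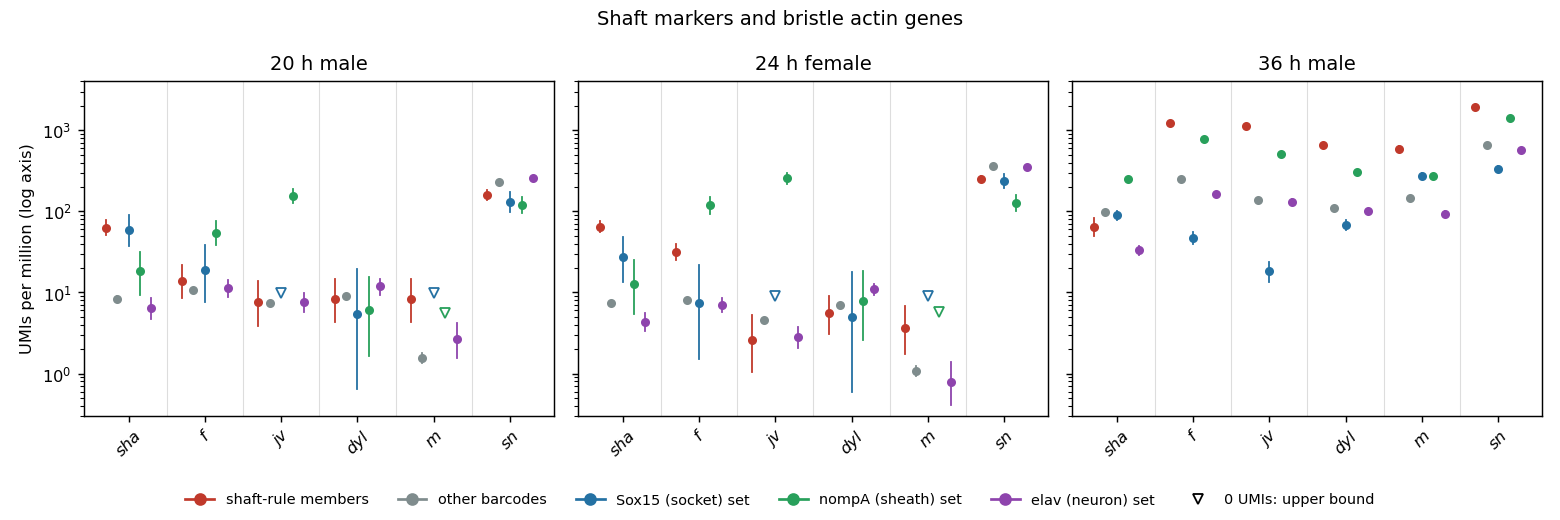
Levels of the shaft markers sha, f, jv and dyl and of the actin and surface genes m and sn in CPM on a log axis, for members, other barcodes and the 3 comparison sets in each library; points are sums over cells, bars are exact 95% Poisson intervals and open triangles mark upper bounds where no UMI was found. Against other barcodes, members stand out for sha at 20 h and 24 h (63.1 and 64.8 CPM). The socket set is near them for sha at 20 h (59.1 CPM) and lower at 24 h (27.2 CPM). At 36 h members stand out for f, jv and dyl (1217, 1130 and 654 CPM), while jv is highest in the sheath set at the 2 earlier ages.

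Across all genes, a gene was called when the CPM of 2 sums differed by at least 2-fold and at least 1 sum reached 10 CPM. Of 4779 genes tested at 20 h, 11.9% were called higher and 12.2% lower in members than in other barcodes, and the shares were 11.8% and 13.1% of 5266 genes at 24 h and 12.3% and 21.4% of 4839 genes at 36 h. These are the backgrounds against which the list counts below should be read. The median log2 ratio over tested genes was 0.14, 0.15 and -0.06. Scaling the sums by edgeR's trimmed mean of M values moved the first 2 medians to -0.05 and -0.0026 and the split at 20 h from 569 higher and 581 lower to 413 higher and 729 lower.

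DNA synthesis genes were higher in members at 20 h and 24 h. Of 13 tested genes of an S phase and endocycle list, 8 were called higher and 0 lower at 20 h (median log2 ratio 1.46), and 10 of 14 were higher and 0 lower at 24 h (median 2.17). At 36 h 0 of 5 tested genes were called in either direction. The gene RnrS, for the small subunit of ribonucleotide reductase, was at 135 CPM in members and 26.9 CPM in other barcodes at 20 h, and at 335 and 35.7 CPM at 24 h. The sliding clamp gene PCNA was at 177 and 41.9 CPM, then at 292 and 48.8 CPM. At 36 h both had 0.998 CPM in members, which is 1 UMI each, so the early difference had no counterpart there.

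Not every cell cycle gene of the list took part. CycE, which drives entry into S phase, was at 12.6 against 14.3 CPM at 20 h and 36.5 against 25.1 CPM at 24 h, and E2f1, a transcription factor of S phase genes, at 119 against 135 CPM and 149 against 120 CPM. Both stayed under the 2-fold limit. The licensing inhibitor geminin passed it, with 139 against 29.0 CPM at 20 h and 204 against 43.7 CPM at 24 h. A list of replication and nucleotide genes, put together after values of these libraries had been seen and therefore only a description, had 11 of 11 tested genes called higher at 20 h and 10 of 12 at 24 h. Its most abundant member was dUTPase, which removes dUTP from the nucleotide pool. dUTPase was at 1377 CPM in members and 180 CPM in other barcodes at 20 h, at 1461 and 197 CPM at 24 h and at 390 and 61.9 CPM at 36 h, so unlike RnrS it stayed higher in members at the last age (log2 ratio 2.66, 2.51 to 2.80). Thymidylate synthase (Ts) was at 16.8 against 4.50 CPM at 20 h and 38.7 against 5.90 CPM at 24 h, and the helicase gene Cdc45 at 14.0 against 3.71 and 41.2 against 6.23 CPM.

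The mitotic list went a different way from its key phosphatase. At 20 h 4 of 7 tested mitotic genes were called higher and 1 lower, and at 24 h 6 of 8 higher and 1 lower. Cdk1 was at 115 against 48.4 CPM at 20 h and 158 against 68.5 CPM at 24 h, and CycA, which also acts in S phase, at 60.3 against 21.8 CPM and 79.2 against 33.3 CPM. The gene called lower was stg, the Cdc25 phosphatase that triggers entry into mitosis, at 146 against 646 CPM and 127 against 744 CPM. At 36 h stg was again lower, at 41.9 against 327 CPM. As a whole the summed mitotic level was lower in members than elsewhere at 20 h (402 against 774 CPM) although the median gene was higher; here stg alone gave 646 of the 774 CPM in the other barcodes.

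The socket set also showed genes of the S phase list. RnrS stood at 252 CPM there at 20 h and 517 CPM at 24 h, and PCNA at 330 and 467 CPM, all above the members. By contrast dUTPase was below the members there, at 483 CPM at 20 h and 769 CPM at 24 h. In the sheath set RnrS was at 15.2 and 4.74 CPM. Against the socket set, with 8.08% of genes higher and 9.41% lower in members at 20 h, 0 of 13 S phase genes were higher and 2 lower, and at 24 h (6.48% and 7.28%) 0 of 14 were higher and 2 lower. Against the sheath set (10.6% higher and 11.8% lower at 20 h, 13.5% and 13.3% at 24 h), 8 of 13 and 11 of 14 were higher and none lower. The neuron set lay below members as well, with 6 of 13 and 9 of 14 genes higher in members and 2 lower at each age (backgrounds 12.5% and 18.4%, then 9.43% and 15.9%).

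Genes of small nucleolar ribonucleoproteins, which modify ribosomal RNA, were another group at the early ages. This list was also assembled after values had been seen. At 20 h 8 of 8 tested genes were called higher in members (median log2 ratio 2.55) and at 24 h 7 of 7 (median 2.88), while at 36 h 0 of 3 were higher and 1 lower. Nop60B, the pseudouridine synthase, was at 188 against 32.1 CPM at 20 h, at 257 against 34.9 CPM at 24 h and at 4.99 against 8.86 CPM at 36 h. Its partner NHP2 was at 183 against 34.7, 255 against 40.7 and 19.0 against 18.6 CPM, and the methylase fibrillarin (Fib) at 53.3 against 8.64, 84.7 against 11.4 and 2.00 against 3.43 CPM. Unlike the S phase list, this group was higher in members than in the socket set, in 7 of 8 genes at 20 h and 5 of 7 at 24 h. Ribosomal protein genes moved little, with 1 of 83 called higher at 20 h, 2 of 83 at 24 h and 2 of 83 lower at 36 h.

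**Figure D2:**
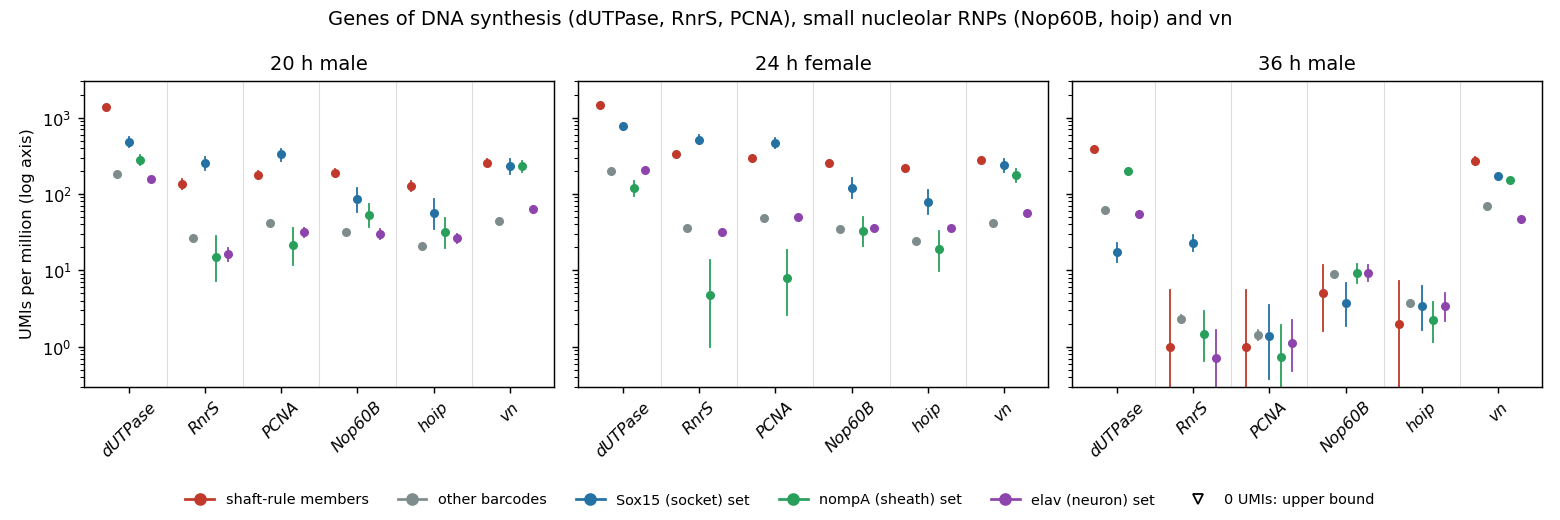
Levels of 3 DNA synthesis genes, 2 small nucleolar ribonucleoprotein genes and vn in CPM on a log axis for the same sets; points are sums over cells and bars exact 95% Poisson intervals, whose lower ends below the axis are not drawn. RnrS and PCNA are highest in the socket set at 20 h and 24 h, dUTPase, Nop60B and hoip are highest in members, and at 36 h dUTPase (390 CPM) and vn (273 CPM) are highest in members, with the whole sheath set at 199 CPM for dUTPase (56.8 CPM without its barcodes in the members' main cluster) and the socket set at 173 CPM for vn.

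These groups were spread over many cells. The summed S phase list had a per-cell median of 577 CPM in members and 234 CPM in other barcodes at 20 h, 1137 and 249 CPM at 24 h, and 162 and 131 CPM at 36 h. For the small nucleolar group the medians were 803 and 68.2 CPM, 1248 and 86.3 CPM, and 14.2 and 0 CPM. Members above the other barcodes' median for the small nucleolar group made up 75.6% of members at 20 h and 98.5% at 24 h.

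**Figure D3:**
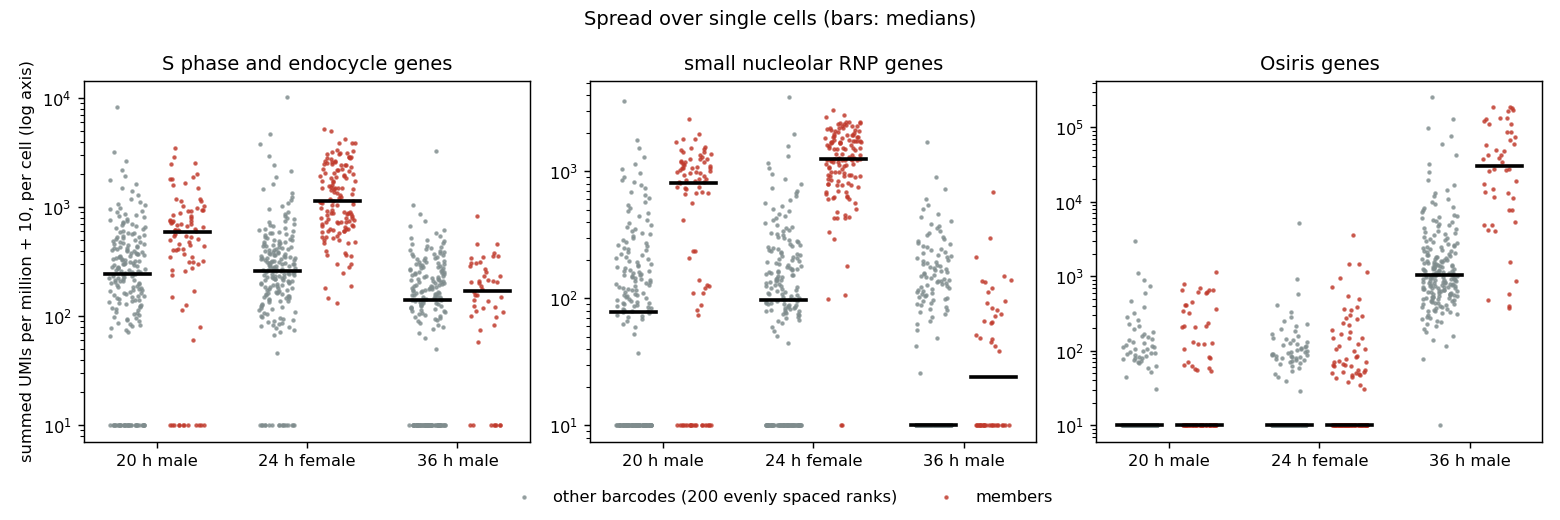
Summed CPM per cell, plus 10, on log axes that differ between panels, for the S phase and endocycle list, the small nucleolar ribonucleoprotein list and the Osiris genes; each red point is a member, grey points are 200 other barcodes at evenly spaced ranks, and bars are medians of the points shown. The 24 h female members lie high in the first 2 panels (medians 1137 and 1248 CPM before the added 10), and the 36 h male members range over several orders of magnitude in the last (365 to 189300 CPM, median 30545).

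Among the genes that build the shaft, the actin list as a whole was level at the early ages. Of 17 tested bristle actin genes 3 were called higher and 0 lower in members at 20 h, 5 and 0 at 24 h, and 3 of 18 higher and 2 lower at 36 h. Summed, the list stood at 4603 CPM in members and 4509 CPM elsewhere at 20 h, 5074 and 5198 CPM at 24 h and 7270 and 4008 CPM at 36 h. The gene sn, encoding the bundling protein fascin, was below the rest of the tissue early, at 160 against 231 CPM and 252 against 361 CPM, and above it at 36 h, at 1933 against 655 CPM (log2 ratio 1.56, 1.50 to 1.63). The genes called higher early were others. They included qua, a villin-like bundling protein, at 44.9 against 16.9 CPM and 50.1 against 14.0 CPM, and ck, an unconventional myosin, at 43.5 against 21.5 CPM and 44.9 against 19.0 CPM. Both had lost that difference at 36 h, with qua at 7.98 against 13.6 CPM and ck at 80.8 against 80.2 CPM. Fimbrin (Fim), another bundling protein, was lower in members at 36 h, at 54.9 against 137 CPM.

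Transport genes were mixed at the last age. The microtubule regulator gene jvl was at 211 against 164 CPM at 20 h, 143 against 97.9 CPM at 24 h and 1172 against 342 CPM at 36 h. The kinesin heavy chain gene Khc was at 235 against 87.5 CPM at 36 h. Of 8 tested transport genes 2 were called higher and 1 lower at that age, against 2 and 0 of 9 at 20 h and 0 of 9 at 24 h.

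ZP domain genes, whose products tie the plasma membrane to the forming cuticle, were mixed. In members 2 of 7 were called higher and 1 lower at 20 h, 1 and 1 of 7 at 24 h, and 3 of 10 and 1 at 36 h. Higher at 36 h were dyl, m (miniature, 585 against 146 CPM) and qsm (221 against 64.5 CPM). The gene called lower was pio, at 459 against 1776 CPM, although it had been above the rest at 20 h (1166 against 726 CPM) and at 24 h (1126 against 681 CPM) by less than 2-fold. The most abundant of the family in members at 36 h was tyn, at 3088 CPM in members and 3228 CPM elsewhere, so its abundance did not set members apart. The socket set held far more of it, at 15222 CPM, and 22949 CPM of the whole family against 7163 CPM in members.

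The Osiris genes, an insect family of membrane proteins active while cuticle is made, stood out at 36 h. The family summed to 73367 CPM in members and 9576 CPM in other barcodes, with 10 of 15 tested genes called higher and 4 lower. Osi21 was at 30002 against 3793 CPM, Osi8 at 26256 against 2849 CPM and Osi11 at 15703 against 1713 CPM. The whole sheath set was at 37382 CPM for the family, its 348 barcodes outside the members' main cluster at 8966 CPM, and the socket set at 1781 CPM. At 20 h and 24 h the family summed to 193 and 91.3 CPM in members, and Osi7 was then its leading member, at 143 against 16.9 CPM and 65.9 against 15.8 CPM. The socket set was above members for the family at these ages, with 432 and 297 CPM. By 36 h Osi7 was at 2.00 CPM in members, which is 2 UMIs, and 76.5 CPM elsewhere.

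Other cuticle genes were mostly lower in members. Of the Cpr family of chitin-binding cuticle proteins, 9 of 10 tested genes were lower and 1 higher at 20 h, 9 of 12 and 1 at 24 h, and 10 of 15 and 3 at 36 h. The chitin synthase gene kkv was at 16.8 against 57.3 CPM at 20 h and 24.0 against 76.6 CPM at 36 h. Exceptions at 36 h were the chitinase Cht7, at 134 against 23.8 CPM, and the tweedle cuticle gene TwdlE, at 1664 against 211 CPM. Of 11 glycolytic genes 0 were called at 20 h and 1 was lower at 24 h, and 4 of 11 were higher and 1 lower at 36 h, among them Eno (384 against 107 CPM) and Gapdh2 (262 against 83.4 CPM). None of 56 tested oxidative phosphorylation genes was called at that age, by this 2-fold rule on single libraries.

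Of 11 tested Notch pathway genes 2 were higher in members and 5 lower at 20 h and 3 higher and 2 lower at 24 h, and of 9 at 36 h 1 was higher and 5 lower. This list includes E(spl) genes, so its calls overlap those of the E(spl) list that follows. At 20 h its genes Dl, N, Ser and numb were called in neither direction. E(spl) genes, the transcriptional targets of Notch, were lower in 7 of 7 tested at 20 h, 3 of 6 at 24 h and 5 of 5 at 36 h, and higher in none. The receptor gene N was at 328 against 600 CPM, 572 against 964 CPM and 105 against 622 CPM. The ligand gene Dl ran the other way, at 336 against 233 CPM, 456 against 181 CPM and 253 against 143 CPM, of which the 24 h ratio passed 2-fold. The ubiquitin ligase gene neur, which activates Dl, was at 162 against 61.1 CPM, 137 against 44.9 CPM and 260 against 176 CPM. Relative to the socket set, which takes the Notch-on fate in flies, members had 0 of 7 E(spl) genes higher and 2 lower at 20 h, 0 and 5 of 8 at 24 h, and 0 of 4 called at 36 h (backgrounds at that age 14.9% higher and 12.4% lower).

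Among lineage factors, the homeodomain gene ct, which external sensory organs use to set their identity, was at 821 against 212 CPM at 20 h and 1246 against 313 CPM at 24 h, then at 166 against 234 CPM at 36 h. The zinc finger gene peb went from 169 against 83.1 CPM and 160 against 52.6 CPM to 23.0 against 76.4 CPM. That last direction turned when other barcodes were paired with members on total UMIs (log2 ratio 0.60 in place of -1.70). The EGF receptor ligand gene vn was higher at every age, at 257 against 43.9 CPM, 275 against 41.4 CPM and 273 against 69.9 CPM. It was not particular to members among the lineage, since the socket set stood at 231, 237 and 173 CPM and the sheath set at 232, 177 and 151 CPM. Ecdysone response genes showed no call at 20 h or 24 h, and at 36 h EcR, the hormone's receptor, was at 398 against 167 CPM while Eip93F, a late hormone-response factor, was at 374 against 1262 CPM.

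**Figure D4:**
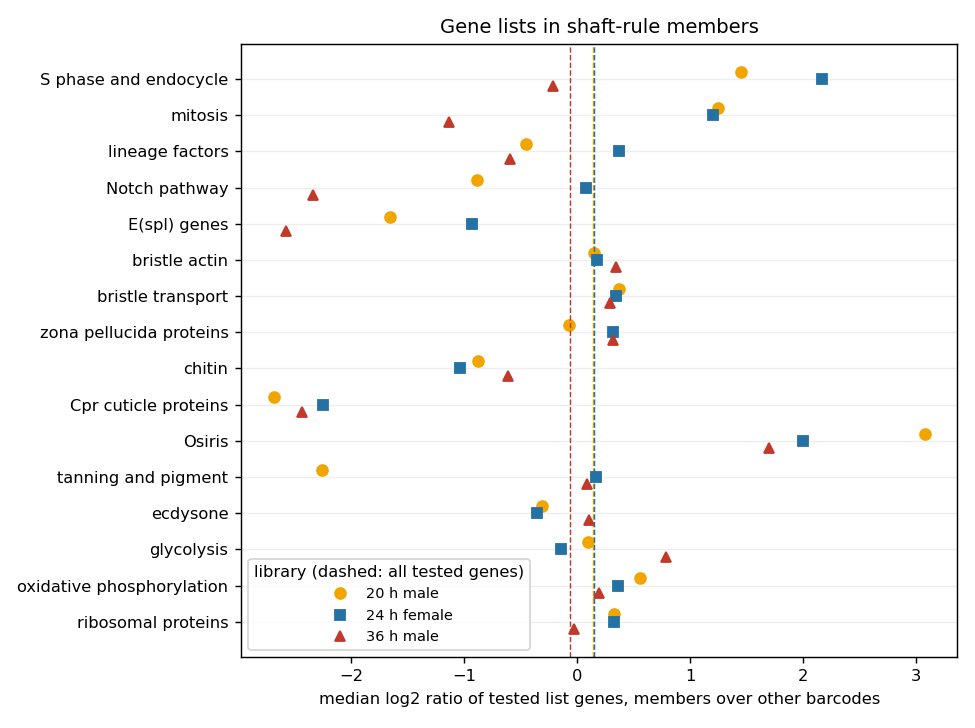
Median log2 ratio of members to other barcodes over the tested genes of each list, on a linear axis, with 1 symbol per library and dashed lines at the median over all tested genes (0.14, 0.15 and -0.06). The S phase list lies to the right at 20 h and 24 h (1.46 and 2.17) and near 0 at 36 h, the Cpr and E(spl) lists lie to the left at all 3 ages, and the Osiris list, of which 3, 2 and 15 genes were tested, lies to the right.

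Some genes kept 1 direction at all 3 ages. By a rule on the smallest ratio over the 3 libraries, the most evenly higher included dUTPase, vn, CG7991 (188 against 24.9 CPM, 129 against 18.4 CPM, 214 against 36.8 CPM), CG5597 (33.6 against 3.45 CPM, 75.5 against 7.03 CPM, 21.0 against 3.31 CPM), the tetraspanin gene Tsp68C (25.9 against 6.11 CPM, 74.8 against 12.4 CPM, 39.9 against 10.5 CPM), and Phlpp, a phosphatase gene (28.7 against 3.46 CPM, 37.6 against 4.18 CPM, 13.0 against 3.06 CPM). CG32040 headed the same ranking at 192 against 17.1 CPM, 75.1 against 5.41 CPM and 2393 against 130 CPM, but only 22.1%, 31.8% and 22.9% of members held a UMI of it, and 5 cells held 90.5% of its UMIs at 20 h. Evenly lower were CG13065 (36.4 against 1309 CPM, 77.3 against 844 CPM, 3.99 against 122 CPM), Obp56a, which encodes an odorant-binding protein (1626 against 11639 CPM, 918 against 6762 CPM, 41.9 against 1006 CPM), and fne, a neuronal relative of elav (6.31 against 101 CPM, 3.68 against 140 CPM, 11.0 against 423 CPM). The rule left out barcodes with elav, which neurons express together with fne.

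Summed levels of 5 lists of other cell types' genes were lower in members than in the other barcodes. At 20 h the summed neuronal list was at 124 against 321 CPM, haemocyte genes at 11.2 against 32.0 CPM, glial genes at 4.91 against 21.2 CPM, muscle genes at 43.5 against 79.1 CPM and epithelial genes at 714 against 1214 CPM. At 24 h these were 129 against 345, 6.63 against 50.0, 9.21 against 27.9, 30.9 against 90.6 and 823 against 1530 CPM. At 36 h they were 713 against 920, 14.0 against 25.7, 5.99 against 29.5, 13.0 against 33.0 and 683 against 1420 CPM. A further list, of 2 tendon genes, was near level at 20 h, at 23.8 against 25.6 CPM (log2 ratio -0.08, -0.63 to 0.38). Its sum was lower in members at 24 h (3.68 against 8.05 CPM) and at 36 h (30.9 against 70.0 CPM). The neuronal sum includes elav, which the rule set to 0 in members. In other barcodes elav stood at 45.4, 67.6 and 43.7 CPM at 20 h, 24 h and 36 h, so that part of the difference was fixed in advance. Medians of some of these lists turned with the processing. With cells thinned to 2000 UMIs the median log2 ratio was above 0 for muscle at 20 h (1.14) and for glia (1.36), haemocytes (0.503) and muscle (1.18) at 36 h, and with the mean of each cell's own CPM it was 1.96 for muscle at 20 h. The neuronal sum at 36 h rested on futsch, a microtubule-associated protein gene, at 668 against 249 CPM, while the other 5 tested neuronal genes were lower in members. Of the futsch UMIs in the 48 members, 5 cells held 70.4%. The epithelial factor gene grh was at 160 against 380 CPM, 211 against 556 CPM and 119 against 464 CPM. The part of these cell types in the results was not tested.

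Members were not 1 homogeneous set within a library. When each whole library was clustered, 49 of 86 members at 20 h (57.0%) lay in 1 cluster of 267 barcodes led by CG4914, CG32040, dUTPase, hoip and Nop60B, and 21 (24.4%) lay in a shallow cluster with a median of 1208 UMIs. The cluster is built on the same genes, so the values in it are descriptions. The 22 members with fewer than 5000 UMIs held 2.31% of all member UMIs at that age. They had 182 CPM of dUTPase and 697 CPM of grh, whereas the other 64 had 1406 and 148 CPM. They also had 243 CPM of f and 182 CPM of dyl against 8.61 and 4.30 CPM in the deeper members. These shallow members held 8 of the 20 f UMIs and 6 of the 12 dyl UMIs of all members at 20 h.

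At 24 h 125 of 132 members (94.7%) shared 1 cluster of 528 barcodes, led by CG4914, dUTPase, RnrS, hoip and Nop60B. Of the 3 libraries this one had the largest share of its members in 1 cluster, at the single resolution used. Of these 125 members, 41 held none of the 4 markers sha, f, jv and dyl. The shallowest member at 24 h held 3207 UMIs, against 981 at 20 h and 962 at 36 h, and the part of depth in this was not tested.

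At 36 h 18 of 48 members (37.5%) were in a cluster of 345 barcodes led by Osi21, Act87E and MtnA, and 11 (22.9%) were in a cluster of 21 barcodes led by CG32040, CG14797 and CG7126, of which they made up 52.4%. Both groups held the shaft markers, with f at 1399 and 1421 CPM, jv at 1103 and 1686 CPM and dyl at 828 and 541 CPM. They differed elsewhere. Osi21 was at 45681 CPM in the first and 13554 CPM in the second, TwdlE at 1289 and 3107 CPM, and MtnA, a metallothionein gene, at 653 and 6.98 CPM. CG32040 was at 0 CPM in the first and 8372 CPM in the second, and CG14797 at 17.5 and 1693 CPM. Another 5 members lay in a cluster led by CG12911 and nompA, with 36.5 CPM of f, 18.3 CPM of jv and 164 CPM of Sox15, so these 5 did not carry the shaft profile. A further 7 were in a shallow cluster.

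Between the 2 male libraries more genes passed the 2-fold limit in members than in the rest of the tissue. Of 4929 genes tested, 23.2% were called higher and 25.1% lower at 36 h than at 20 h in members, against 19.2% and 11.0% in the other barcodes. The member sums held 1426808 UMIs at 20 h and 1002109 at 36 h, those of other barcodes 115024554 and 116268773. Counting error was therefore larger in members, and its part in the higher shares was not tested. Shaft genes were among the highest, with log2 ratios of 6.41 (5.81 to 7.16) for f, 7.13 (6.35 to 8.20) for jv, 6.22 (5.47 to 7.24) for dyl and 3.59 (3.40 to 3.80) for sn. The corresponding values in other barcodes were 4.55, 4.22, 3.58 and 1.50, so the same genes were also higher at 36 h there, by less. By contrast sha differed by 0.04 (-0.44 to 0.52) in members and by 3.55 in other barcodes.

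Of 10 ZP domain genes 9 were higher at 36 h and 1 lower, and of 14 Osiris genes 13 were higher and 1 lower. In the other barcodes 9 of 10 ZP domain genes and 12 of 12 Osiris genes were higher and 0 lower. Osi21 had no UMI in 20 h members, which makes it at least 14269-fold higher at 36 h when read at the 3-count floor over the member sum. Osi11 had 1 UMI at 20 h, giving a log2 ratio of 13.87 (11.97 to 19.76), against 7.69 in other barcodes. Genes of growth and division were lower. At 36 h 9 of 13 S phase genes, 7 of 7 mitotic genes and 8 of 8 small nucleolar genes were lower than at 20 h and none higher, and 10 of 83 ribosomal protein genes were lower. In the other barcodes 4 of 8 S phase genes were lower and 1 higher, 4 of 5 mitotic and 3 of 6 small nucleolar genes were lower, and 0 of 83 ribosomal protein genes were called. The factor gene ct and the receptor gene N were lower at 36 h, with log2 ratios of -2.31 (-2.55 to -2.07) and -1.64 (-1.97 to -1.34), while the other barcodes gave 0.14 and 0.05. Among the most strongly lower genes was CG34247, at 3682 CPM at 20 h and 0.998 CPM at 36 h, a gene that was much higher in other barcodes at 20 h (38138 CPM) and declined there too.

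**Figure D5:**
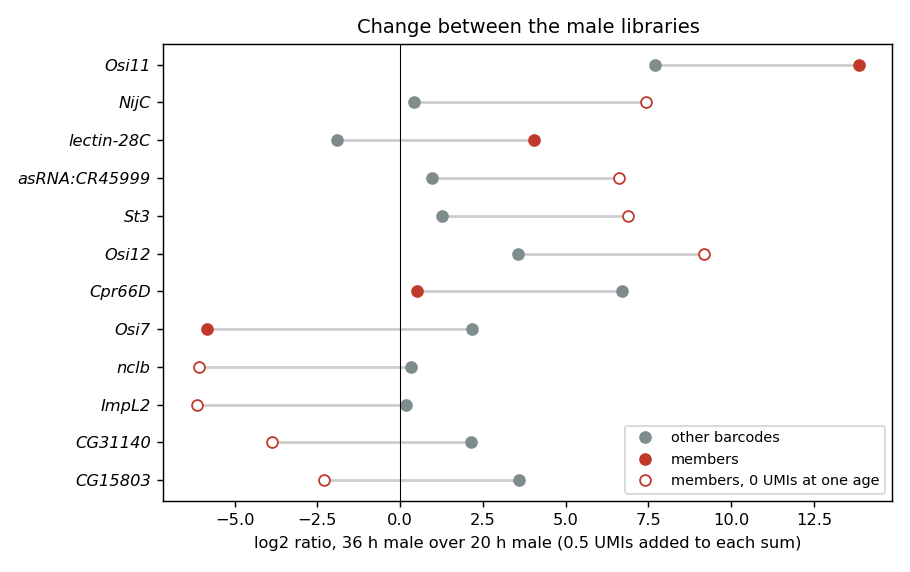
Log2 ratio of 36 h male to 20 h male sums for the 12 genes whose ratio differed most between members (red) and other barcodes (grey), on a linear axis. Open red circles mark genes with no UMI in members at one of the ages, whose plotted position depends on the 0.5 UMIs added to each sum; Osi11 lies at 13.87 in members and 7.69 elsewhere, and Osi7 at -5.84 and 2.18.

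Fewer genes differed between the 24 h female and 20 h male members. Of 4984 genes 13.6% were called higher and 4.27% lower at 24 h, against 8.21% and 2.93% in other barcodes. The median over genes was 0.36, and scaling by trimmed mean of M values brought it to 0.05 and the counts from 677 higher and 213 lower to 317 higher and 384 lower, so the excess of higher calls followed the scaling. The S phase list had 7 of 14 genes higher and 0 lower, with RnrS at a log2 ratio of 1.31, above that median. The gene f had a ratio of 1.15, which became -1.01 when each cell's own CPM was averaged with equal weight. Heat shock gene Hsp70Aa was at 340 CPM in 24 h members and 35.0 CPM in 20 h members, and at 372 and 37.6 CPM in other barcodes, so that difference was shared by the whole libraries. Both age comparisons use the same 20 h members.

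Genes of sex and segment identity were read last. The sex determination factor gene dsx was at 101 against 114 CPM at 20 h, 37.2 against 103 CPM at 24 h and 91.8 against 78.5 CPM at 36 h. The driven mCherry was found in 18.6% of 20 h members at 565 CPM, with 75.9% of its UMIs in 5 cells, and at 5.99 CPM at 36 h, against 221 and 251 CPM in other barcodes, and had no UMI in the 24 h female library. The homeotic gene Scr, which specifies the foreleg, was at 230 against 273 CPM, 221 against 271 CPM and 65.9 against 175 CPM.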

How the data were processed

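Single-cell libraries (10x Chromium 3' v3.1) were made from pools of pupal first tarsal segments, per the labels' protocols. The deposited matrices hold counts of UMIs per gene and barcode, which per the file headers are Cell Ranger 7.0.0 output of the authors, and the submitters' processing notes name the build BDGP6. The counts were used as deposited; 2 further matrices that match no labelled sample were not used. Gene coordinates come from the BDGP6.54 annotation, and 16447 of 16496 features were in its name table.

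Barcodes with at least 500 genes and at most 10% mitochondrial UMIs were kept. UMIs were summed per set and divided by the set's total to give CPM with exact 95% Poisson intervals. Log2 ratios had 0.5 counts added to each sum, with exact conditional binomial intervals, and shares have exact Clopper-Pearson intervals. A gene was tested when either sum reached 10 CPM and called at 2-fold. With 1 library per group, no test across samples was possible and no p-value was computed. Detection shares were thinned to 8000 UMIs. Doublets were kept in the main sets and removed with Scrublet, at 0.8% per 1000 barcodes, as an alternative; no label says that doublets were removed before deposit. Clusters used scanpy 1.11.5 (Leiden, 2000 variable genes, 30 components, 15 neighbours, resolution 1). Python 3.11.15, numpy 2.4.6, scipy 1.17.1, pandas 2.3.3 and, for scaling factors only, edgeR 4.0.16 were used.

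The members, gene lists and comparisons were chosen with earlier results of these data known. Named genes were the 12 with the highest and the 6 with the lowest smallest ratio over the 3 libraries, 6 higher and 4 lower per library, 6 each way per age comparison, 6 each way for the difference in change, and the 4 most abundant of each list, each at 10 CPM or more and in at least 10% of cells where higher. The text gives a selection of them. In simulated counts with 100 genes raised 4-fold and 100 lowered 4-fold, 100% were called in each of the comparisons with other barcodes (4438, 4868 and 4703 genes), and 0.708%, 0.0214% and 1.04% of unchanged genes were called at 20 h, 24 h and 36 h. The simulated sums were Poisson draws without differences between cells, and the changed genes had at least 20 CPM in other barcodes. These shares therefore do not cover genes held by a few cells or changed genes nearer the 10 CPM limit.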

Additional observations from a re-analysis of the deposited data

Results flagged for a closer look

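The ratio of members to other barcodes pointed one way in some libraries and the opposite way in another for 10 of the named genes. Each library is 1 sample, so these differences between ages were not tested, and fitted values at 0 UMIs depend on the 0.5 counts added. The lectin gene lectin-28C stood at log2 ratios of -3.90 at 20 h, -6.15 at 24 h, where members held 0 UMIs and were at least 11.8-fold lower, and 2.06 at 36 h. The cuticle-stage gene Osi7 gave 3.08, 2.06 and -4.94. For ImpL2, an insulin-binding protein gene, the ratios were 1.50, 1.40 and -4.82, with 0 UMIs in members at 36 h, where they were at least 4.69-fold lower. The pigmentation gene e gave 1.26, 1.43 and -2.23, on few UMIs: at 20 h members held 4, at 2.80 CPM near the 3-count floor of 2.10 CPM, and at 24 h 5 cells held 85.7% of 35. The gene peb gave 1.03, 1.61 and -1.70, and its 36 h sign turned to 0.60 when other barcodes were paired on UMIs.

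Other genes went from lower to higher in members. The chitinase gene Cht7 gave -0.72, -1.41 and 2.49. The tanning gene stw gave -1.17, -1.10 and 1.15, with 600 CPM in members and 271 CPM elsewhere at 36 h. The cuticle genes Cpr49Ae and TwdlE gave -2.50, -2.72 and 1.60, and -1.77, -2.12 and 2.98. The reporter mCherry went from higher to lower instead, with 1.35 at 20 h and -5.27 at 36 h. At 20 h 5 cells held 75.9% of its UMIs in members. At 36 h 10.4% of members and 17.5% of other barcodes held a UMI.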

How the results depend on the processing

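No paired analysis was possible because each group is 1 library, and for the same reason no replicate could be left out. Across alternatives 8817 log2 ratios of named genes moved by less than their counting error and 2173 moved by more. A further 35, all called at 2-fold in the main analysis, changed sign. Sign changes of ratios that were not called there were not counted apart. Of the 8817, 875 came from the minimum of 20 CPM, which only selects the tested genes and so cannot move a ratio. The share of barcodes that were members became 0.481%, 0.661% and 0.297% at 20 h, 24 h and 36 h with at least 3 sv UMIs, and 3.10%, 1.88% and 1.58% with at least 1. In alternatives chosen after seeing the data it became 0.471% at 20 h and 0.632% at 24 h among members with 1 of the 4 other markers, and 0.603% at 20 h among those with 5000 UMIs or more. Counts of called genes moved by over 1.5 times as follows. With at least 1 sv UMI, 100, 316 and 246 genes were higher and 73, 208 and 332 lower. With cells thinned to 2000 UMIs, 1204, 1098 and 1855 were higher, and 1239 were higher and 580 lower at 24 h than at 20 h, and 1890 higher at 36 h than at 20 h. With edgeR's scaling, 317 were higher and 384 lower at 24 h than at 20 h. With the mean of each cell's own CPM, 1126 were higher at 20 h and 939 at 36 h, and 1050 were higher and 1248 lower at 24 h than at 20 h. With a minimum of 20 CPM, 371 were higher at 20 h, and 400 were higher and 113 lower at 24 h than at 20 h. With other barcodes paired on UMIs, 337 were higher at 20 h.

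Of the log2 ratios past 2-fold in the main analysis, some turned. At 24 h over 20 h, CG13065 became -0.445 with at least 3 sv UMIs, -2.02 with at least 1 and -0.600 with the mean of own CPM, and f became -1.01 with that mean. Obp99a became 1.50 with at least 3, Cpr12A -0.603 and zfh1 1.03 with at least 1, and Osi7 0.767 when thinned. At 36 h over 20 h, with at least 3 sv UMIs, NimC4 became -1.98, zfh1 -1.24 and NimC3 -0.185. With at least 1, CG4914 became 0.284, NimC4 -0.0035, Glt -0.207, zfh1 -0.0092, lectin-28C -0.557 and pio 0.446. Without doublet calls Vajk4 became -0.286, thinned lncRNA:CR43150 became 0.640 and b -0.945, with the mean of own CPM zfh1 became -0.220, and with a marker required Obp28a became 0.774. The haemocyte genes NimC4, NimC3, zfh1 and Glt rested on 1 cell at 36 h. For members over other barcodes, thinning turned Obp99a (0.247), stw (0.191), Mef2 (0.206) and the medians of the muscle (1.14) and tweedle (0.168) lists at 20 h, ATPsynepsilonL (-0.034) at 24 h, and moody (0.667), Sr-CI (0.296), Vajk4 (0.127) and the medians of the glial (1.36), haemocyte (0.503), muscle (1.18) and tweedle (1.80) lists at 36 h. The mean of own CPM turned the muscle median at 20 h (1.96) and Syt1 (0.117) and the tweedle median (1.92) at 36 h, and a minimum of 20 CPM turned the tweedle median to 0.938. Pairing on UMIs turned wrapper at 24 h (0.882) and NimC4 (2.60), NimC3 (2.12), peb (0.601), Sr-CI (1.14) and the replication median (-0.255) at 36 h. The cause was not tested.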
